A study of Mus musculus with 6 samples.

Results

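Complement and coagulation genes encode plasma proteins that the liver secretes in large amounts. Of the 46 genes on the list, 40 were measured here among 18820 genes, 22 of clotting and fibrinolysis and 18 of complement. They were chosen by symbol: a probe set had to carry that 1 gene symbol, and where a gene had several, the brightest by its mean over the 6 arrays was used. Klkb1, C4b and Masp2 had probe sets that name several genes and were not analysed here, nor were C3 and Cpb2. C5 is an older name of Hc, the mouse gene of complement C5, so the pair counts as 1 measured gene.

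The samples were livers of 2-month-old C57BL6 mice, 4 of the genotype Pcyt2+/- (replicates 1 to 4) and 2 of wild type (replicates 3 and 4), each mouse with its own array. Pcyt2 encodes the regulated enzyme of CDP-ethanolamine synthesis, on the route to phosphatidylethanolamine, and Pcyt2+/- mice still carry a working copy of it in every cell. The group is titled knock-out, although its stated genotype is heterozygous. Neither sex nor feeding state is among the labels used here. Values are on the log2 scale, and differences are Pcyt2+/- minus wild type.

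Clotting runs as a cascade of plasma proteases that ends with thrombin (F2) cutting fibrinogen into fibrin, held in check by serpins and the protein C system and undone by plasmin. Complement is started by C1q, mannose-binding lectins or the alternative pathway, and ends with C5 to C9 forming a pore in membranes. Most of these genes are made by hepatocytes under liver transcription factors such as HNF4 and C/EBP, and several rise in the acute phase through IL-6 and STAT3. C1q comes mainly from macrophages, which in the liver are the Kupffer cells.

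Pcyt2 itself read 4.638, 4.657, 4.669 and 4.604 in Pcyt2+/- replicates 1 to 4 and 4.887 and 4.796 in wild type replicates 3 and 4, with no overlap between the groups. Its difference was -0.20 as deposited and -0.97 with each array's median signal subtracted on the linear scale. Array medians lay between 4.397 and 4.403, and arrays correlated across probe sets at r of 0.991 to 0.998. Hepatocyte markers were at high signal (8 of 8 measured had a mean above 5), while Kupffer cell, endothelial, cholangiocyte and blood cell markers were not (0 of 12, 0 of 10, 0 of 5 and 0 of 15). Of 10 stellate cell and fibroblast markers 1 had a mean above 5, Dcn, the decorin gene. In whole liver, fewer cells of a type and less RNA per cell cannot be told apart.

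On the deposited scale the complement and clotting genes differed little between the genotypes. None of the 40 had an adjusted p under 0.05 by limma (0.487 at the lowest, 0.997 at the highest), and neither did any other gene (0% of 18820). Their differences ran from -0.13 for F2 to 0.27 for Hrg, or 0.912-fold to 1.21-fold, with a median of 0.012 against -0.00073 over all genes. For 28 of the 40 the difference was smaller than the SD between arrays of the same genotype. A lower mean in Pcyt2+/- was seen for 17 of 40 (42.5%), where all genes gave 51.9%. The range and its end members depend on the scale. With each array's median signal subtracted, differences of the 33 members with a mean above 4.6 ran from -0.36 (C1ra) to 0.33 (C9).

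Signal level matters for this comparison, since 70.0% of the members but 4.21% of all genes had a mean above 5. Among genes with a mean above 5, 62.4% had a lower mean in Pcyt2+/-, and among the 28 members above 5 it was 11, or 39.3%. Of those 28, 4 (14.3%) had an unadjusted p under 0.05, against 20.2% of genes at that level. The 12 dimmer members held 3, against 4.65% of the dimmer genes. At all levels together there were 7 of 40 (17.5%), 4 lower and 3 higher, against 5.30% of all genes (3.44% lower and 1.86% higher). The same 7 had group ranges that did not overlap, where all genes gave 7.17% lower and 5.67% higher and genes above 5 gave 20.8% in either direction. Those above 5 were thus near or below the share of other bright liver genes.

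**Figure D1:**
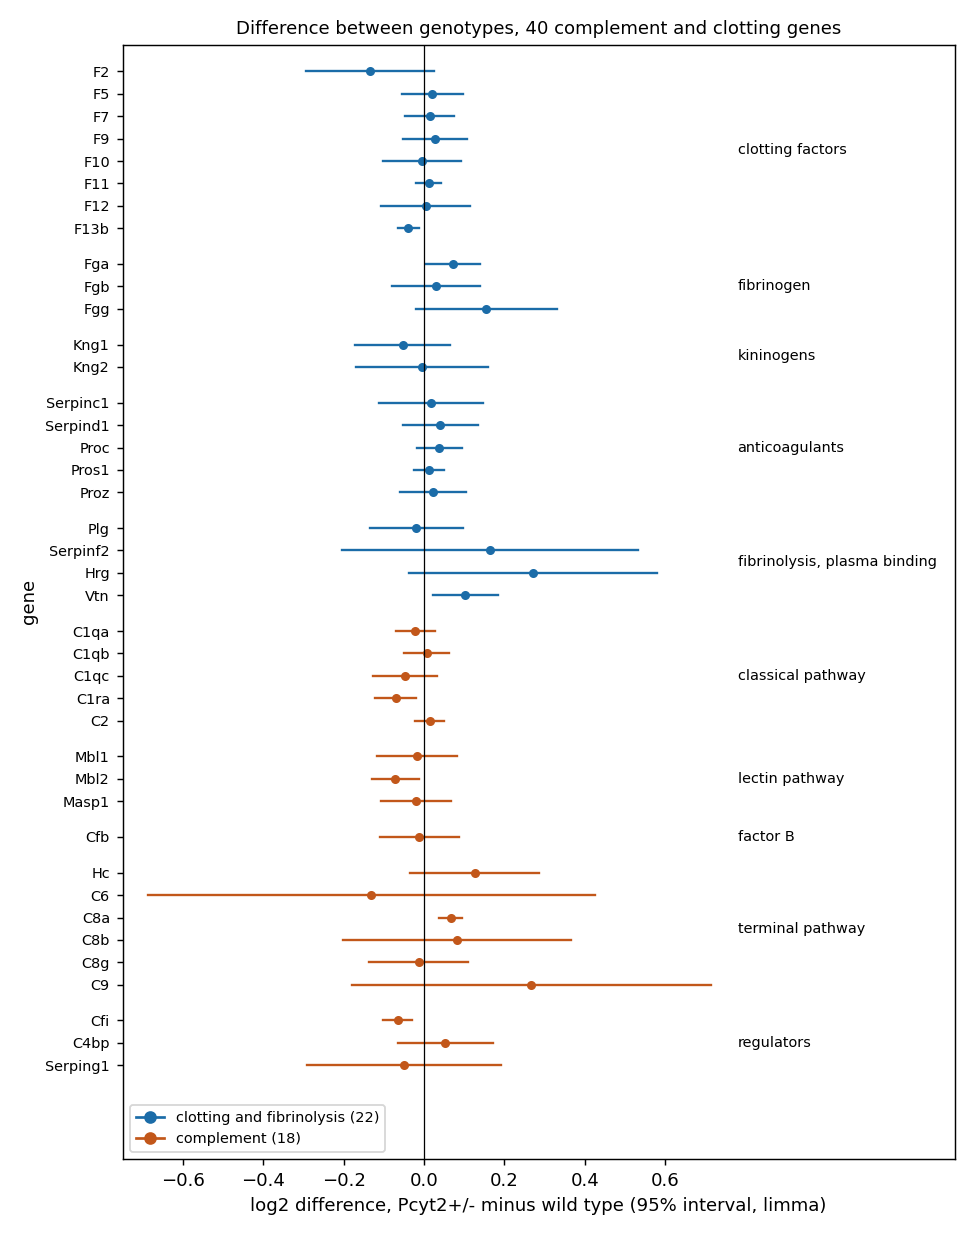
The log2 difference between Pcyt2+/- (4 arrays) and wild type (2 arrays) for each measured gene, with limma's 95% interval, ordered by role and coloured by system. Points lie between -0.13 (F2) and 0.27 (Hrg), and the widest interval belongs to C6.

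The intervals are those of limma, which draws the spread of each gene toward a value shared by all genes. Most of those were dim. The median SD between arrays of a genotype was 0.017 over all genes and 0.075 over genes with a mean above 5. Intervals of bright members may therefore be too narrow. For 22 of the 28 members with a mean above 5 the 95% interval of the difference lay within a 1.25-fold change either way. The remaining 6 were Fgg, Serpinf2, Hrg, C6, C8b and C9. These bounds hold with that shared value and on the deposited scale, which understates a change at low signal. No bound is given for the 12 members with a mean of 5 or less, and members just above 5 were compressed as well. With each array's median signal subtracted, Proz went from 0.022 to 0.056, C4bp from 0.053 to 0.099 and C6 from -0.13 to -0.29.

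Among clotting factors, F2, the prothrombin gene, had the lowest difference. It read 7.32, 7.25, 7.21 and 7.07 in Pcyt2+/- replicates 1 to 4 and 7.40 and 7.30 in wild type replicates 3 and 4. The groups overlapped through Pcyt2+/- replicate 1, and the lowest value was that of Pcyt2+/- replicate 4. Pcyt2+/- averaged 7.21 ± 0.11 (SD, n = 4) and wild type 7.35 ± 0.072 (SD, n = 2). The difference was -0.13 (SE 0.067, adjusted p = 0.944 by limma). It was -0.083 without wild type replicate 3, -0.085 without Pcyt2+/- replicate 4 and -0.080 after quantile normalization.

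F13b, the carrier subunit of the fibrin cross-linking factor XIII, had a low signal. It read 4.50, 4.50, 4.49 and 4.48 in Pcyt2+/- replicates 1 to 4 and 4.54 and 4.53 in wild type replicates 3 and 4, so that the groups did not overlap. The difference of -0.039 had an SE of 0.011 (unadjusted p = 0.00947, adjusted p = 0.758, limma). F9, the factor missing in hemophilia B, read 4.70, 4.64, 4.6 and 4.61 against 4.57 and 4.65, with overlap and a difference of 0.027 (0.19 with each array's median signal subtracted, -0.011 without wild type replicate 3). F5, the cofactor that speeds thrombin formation, F7, the partner of tissue factor, F10, which cuts prothrombin, and F11 and F12 of the contact route had differences from -0.0049 (F10) to 0.020 (F5). The sign for F10 turned with quantile normalization.

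The 3 fibrinogen chains, Fga, Fgb and Fgg, are neighbours on chromosome 3 and are built into 1 hexamer. Each had a higher mean in Pcyt2+/-. Fga read 5.11, 5.18, 5.10 and 5.12 in Pcyt2+/- replicates 1 to 4 and 5.02 and 5.09 in wild type replicates 3 and 4, without overlap by a small margin. Fgb read 9.53, 9.66, 9.59 and 9.49 against 9.57 and 9.51, with full overlap. Fgg read 9.92, 10.01, 9.99 and 9.84 against 9.66 and 9.91, where wild type replicate 3 stood below the other 5 arrays.

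The differences were 0.072 for Fga (SE 0.028, unadjusted p = 0.0396, adjusted p = 0.913, limma), 0.030 for Fgb (SE 0.046) and 0.15 for Fgg (SE 0.074). Without wild type replicate 3 they were 0.034 for Fga and 0.029 for Fgg. For Fgb the sign turned without Pcyt2+/- replicate 2 (-0.000325). For Fga the value was 0.19 with the median signal subtracted, and a second, dimmer probe set lowered it to 0.047 when both were averaged. Pcyt2+/- replicate 2 gave the highest value of each chain.

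The promoter windows of the fibrinogen genes are shown because the chains are known to be switched on together in the acute phase. RefSeq windows of 300 bases (250 before and 50 after the start of the gene, build GRCm38.p6) were held for 31 of the 40 measured members. Those of Fga, chr3:83025903-83026202 (plus strand), Fgb, chr3:83049814-83050113 (minus strand), and Fgg, chr3:83007474-83007773 (plus strand), read as below on the strand of the gene. Capitals mark matches, on either strand, to the letters searched: TTGCNNAA for C/EBP, TTCNNNGAA for STAT factors, CTGGGAA as an IL-6 response element, CAAAGT from the HNF4 site, and TATAAA for the TATA box.
Fga: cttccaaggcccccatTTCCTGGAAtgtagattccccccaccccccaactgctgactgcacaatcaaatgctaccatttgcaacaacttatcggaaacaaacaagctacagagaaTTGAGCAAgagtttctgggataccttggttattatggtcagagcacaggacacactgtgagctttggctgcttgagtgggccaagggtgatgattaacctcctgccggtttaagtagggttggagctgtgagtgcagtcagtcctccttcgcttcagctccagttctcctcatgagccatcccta
Fgb: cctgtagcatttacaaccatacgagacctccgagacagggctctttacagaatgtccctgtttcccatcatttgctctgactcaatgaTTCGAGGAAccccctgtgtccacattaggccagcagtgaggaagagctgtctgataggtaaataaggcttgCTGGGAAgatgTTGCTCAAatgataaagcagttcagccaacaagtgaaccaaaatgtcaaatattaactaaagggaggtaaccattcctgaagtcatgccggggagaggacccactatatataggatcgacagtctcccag
Fgg: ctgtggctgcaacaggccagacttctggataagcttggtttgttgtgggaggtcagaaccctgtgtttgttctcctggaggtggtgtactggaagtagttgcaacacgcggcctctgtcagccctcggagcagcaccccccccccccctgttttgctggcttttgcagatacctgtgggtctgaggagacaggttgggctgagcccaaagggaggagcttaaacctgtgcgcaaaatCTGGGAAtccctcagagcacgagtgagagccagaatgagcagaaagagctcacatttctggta

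The Fga and Fgb windows each held a match to the C/EBP and to the STAT letters, Fgb held an IL-6 response match as well, and the Fgg window held only the last. Over the 32 windows of measured members (C8g has 2), the C/EBP letters were found in 28.1%, against 10.8% of all 32851 windows. The STAT letters were in 21.9% against 8.3%. The IL-6 response letters were in 21.9% against 11.1%, the HNF4 letters in 25% against 14.4%, and the TATA letters in 9.38% against 13.6%. A match is a description of these letters and not of binding. Clotting windows held the C/EBP letters in 7 of 19 and complement windows in 2 of 13.

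The kininogens, from which kallikrein frees bradykinin, differed by -0.053 (Kng1) and -0.0059 (Kng2). The mouse genes are close copies of one another, so that probe sets may not fully separate them. The sign for Kng2 turned with quantile normalization. Kng1 read 9.514, 9.627, 9.496 and 9.453 in Pcyt2+/- replicates 1 to 4 and 9.627 and 9.523 in wild type replicates 3 and 4, with a difference of -0.00098 without wild type replicate 3. Both wild type values thus lay inside the Pcyt2+/- range or at its upper end.

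The 5 anticoagulant genes all had a slightly higher mean in Pcyt2+/-, and none had an unadjusted p under 0.05. Serpinc1, the antithrombin gene, read 7.82, 7.76, 7.77 and 7.60 against 7.73 and 7.70, with overlap and a difference of 0.018 (SE 0.055). It was 0.11 after quantile normalization and -0.0083 without Pcyt2+/- replicate 1. Serpind1, heparin cofactor II, had 0.040 (0.0090 without Pcyt2+/- replicate 2). Proc, the protein C gene, had 0.038, which was 0.020 without wild type replicate 3 and 0.082 after quantile normalization. Pros1, its cofactor protein S, had 0.012 and Proz, protein Z, 0.022. Signs turned for Pros1 and Proz without wild type replicate 3.

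Plg, the precursor of plasmin, read 9.15, 9.23, 9.15 and 9.04 in Pcyt2+/- replicates 1 to 4 and 9.19 and 9.13 in wild type replicates 3 and 4. The difference was -0.019 with an interval from -0.13 to 0.096, and its sign turned with quantile normalization. The other members of this branch had higher means in Pcyt2+/-. Serpinf2, the plasmin inhibitor alpha-2-antiplasmin, ranged from 7.84 (Pcyt2+/- replicate 3) to 8.44 (Pcyt2+/- replicate 1), with wild type at 8.10 and 7.89. Both wild type values lay within that range, and the difference of 0.16 (SE 0.15) was 0.071 without Pcyt2+/- replicate 1 and 0.059 without wild type replicate 4.

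Hrg encodes histidine-rich glycoprotein, a plasma protein that binds heparin and plasminogen, and had the highest difference of the 40 on the deposited scale. It read 8.71, 8.77, 8.42 and 8.92 in Pcyt2+/- replicates 1 to 4 and 8.53 and 8.34 in wild type replicates 3 and 4. Pcyt2+/- replicate 3 lay between the wild type mice, so the groups overlapped. Pcyt2+/- averaged 8.70 ± 0.21 (SD, n = 4) and wild type 8.43 ± 0.14 (SD, n = 2). The difference was 0.27 (SE 0.13, adjusted p = 0.936 by limma), and 0.18 without wild type replicate 4.

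Vtn encodes vitronectin, which stabilises the plasminogen activator inhibitor PAI-1 and also blocks insertion of the complement pore. It read 9.69, 9.74, 9.65 and 9.67 against 9.64 and 9.53, so that the groups just failed to overlap. The difference of 0.10 had an SE of 0.034 (unadjusted p = 0.0205, adjusted p = 0.869, limma) and was 0.050 without wild type replicate 4.

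In complement, the classical pathway members mostly had low signals. C1qa, C1qb and C1qc, the chains of the recognition molecule, are neighbours on chromosome 4. C1qa read 4.56, 4.50, 4.50 and 4.54 in Pcyt2+/- replicates 1 to 4 and 4.55 and 4.54 in wild type replicates 3 and 4. C1qb read 4.69, 4.61, 4.65 and 4.62 against 4.61 and 4.66, and C1qc 4.48, 4.43, 4.53 and 4.52 against 4.58 and 4.50. The groups overlapped for each chain, with differences of -0.021, 0.0063 and -0.047. Without wild type replicate 3 the value was -0.016 for C1qb and -0.0044 for C1qc.

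Macrophage markers were read beside the C1q chains. Of 12 Kupffer cell and macrophage markers, 4 had a lower mean, the median difference was 0.0049, and none had an unadjusted p under 0.05. Their summed signal on the linear scale was 265 to 271 in Pcyt2+/- and 265 to 266 in wild type. All 12 markers were dim, most of them near the array medians of 4.397 to 4.403. The brightest were Slc40a1, at 4.74 in Pcyt2+/- and 4.69 in wild type, and Clec4f, at 4.61 and 4.605. The summed signal therefore cannot tell whether macrophage content differed. Clec4f, a lectin of Kupffer cells, differed by 0.0046.

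C1ra, a protease of the C1 complex, read 4.65, 4.70, 4.66 and 4.72 in Pcyt2+/- replicates 1 to 4 and 4.76 and 4.75 in wild type replicates 3 and 4, with no overlap. The difference was -0.070 with an SE of 0.021 (unadjusted p = 0.0140, adjusted p = 0.817, limma), and -0.36 with the median signal subtracted. Another probe set names C1ra together with its close copy C1rb and was not used, so signals of this pair may not be fully separated. C2, the protease that joins C4b, differed by 0.014 (-0.0071 without wild type replicate 3).

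The lectin pathway starts with Mbl1 and Mbl2, the mannose-binding lectins, and the protease Masp1. All 3 had a lower mean in Pcyt2+/-. Mbl2 read 4.51, 4.52, 4.53 and 4.50 against 4.63 and 4.54, where wild type replicate 3 stood apart from the other 5 arrays. The difference was -0.072 (SE 0.024, unadjusted p = 0.0224, adjusted p = 0.872, limma) and -0.027 without that mouse. Mbl1 read 4.73, 4.82, 4.69 and 4.67 against 4.71 and 4.78, with overlap and a difference of -0.018. Masp1 differed by -0.020, and for Mbl1 and Masp1 the sign turned when single arrays were left out.

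Cfb, factor B of the alternative pathway, differed by -0.011, with all values between 5.65 and 5.80. Its sign turned with quantile normalization. In the regulators, Cfi, the protease that cuts C3b and C4b, read 5.38, 5.37, 5.35 and 5.33 in Pcyt2+/- replicates 1 to 4 and 5.43 and 5.42 in wild type replicates 3 and 4. Every Pcyt2+/- mouse lay below either wild type mouse, with a difference of -0.066, an SE of 0.015 and an interval from -0.10 to -0.031 (unadjusted p = 0.00321, adjusted p = 0.593, limma). The difference kept its sign in all 6 fits that left out an array, from -0.073 to -0.057, and was -0.040 after quantile normalization and -0.13 with the median signal subtracted. With limma's trended and robust prior the adjusted p of Cfi was 0.949. C4bp, the cofactor of Cfi for C4b, had 0.053 (0.0029 without wild type replicate 3) and Serping1, the C1 inhibitor, -0.050, which turned with quantile normalization.

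The terminal pathway held both the smallest p and the widest spread between mice. C8a, the alpha chain of C8, read 5.36, 5.38, 5.36 and 5.36 in Pcyt2+/- replicates 1 to 4 and 5.29 and 5.31 in wild type replicates 3 and 4. The groups did not overlap, and the SD was 0.012 (n = 4) and 0.015 (n = 2). The difference of 0.066 (SE 0.012, interval 0.037 to 0.096) is a 1.05-fold change, with an unadjusted p of 0.00116 and an adjusted p of 0.487 by limma. It lay between 0.056 and 0.076 in all 6 fits that left out an array, at 0.095 after quantile normalization and at 0.14 with the median signal subtracted. With limma's trended and robust prior the adjusted p of C8a was 0.944.

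C8b and C8g, the other chains of C8, had overlapping groups. C8b ranged from 7.08 to 7.32 in Pcyt2+/- and read 6.90 and 7.34 in wild type replicates 3 and 4, so the wild type mice enclosed the Pcyt2+/- range. Its difference of 0.082 (SE 0.12) was -0.14 without wild type replicate 3. C8g differed by -0.013 (SE 0.052), and the sign turned with quantile normalization.

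C9, which forms the wall of the pore, read 7.20, 7.18, 7.04 and 7.35 in Pcyt2+/- replicates 1 to 4 and 6.56 and 7.30 in wild type replicates 3 and 4. Wild type replicate 3 stood below the other 5 arrays, and wild type replicate 4 lay inside the Pcyt2+/- range. The difference of 0.27 (SE 0.19, adjusted p = 0.956 by limma) was -0.10 when wild type replicate 3 was left out and 0.64 without wild type replicate 4. Hc read 6.89, 6.83, 6.95 and 6.90 against 6.64 and 6.90, the same arrangement, with a difference of 0.13 and -0.0037 without that mouse.

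C6, which joins C5b to begin the pore, had the widest range of the 40 genes. It read 5.39, 4.90, 5.15 and 5.67 in Pcyt2+/- replicates 1 to 4 and 5.11 and 5.71 in wild type replicates 3 and 4, a range of 0.80. High and low mice were found in each genotype. The SD between arrays of a genotype was 0.35, against a median of 0.059 over the 40 members. The difference of -0.13 had an interval from -0.69 to 0.42, and it was 0.17 without wild type replicate 4, -0.43 when wild type replicate 3 was left out and -0.0065 without Pcyt2+/- replicate 2.

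**Figure D2:**
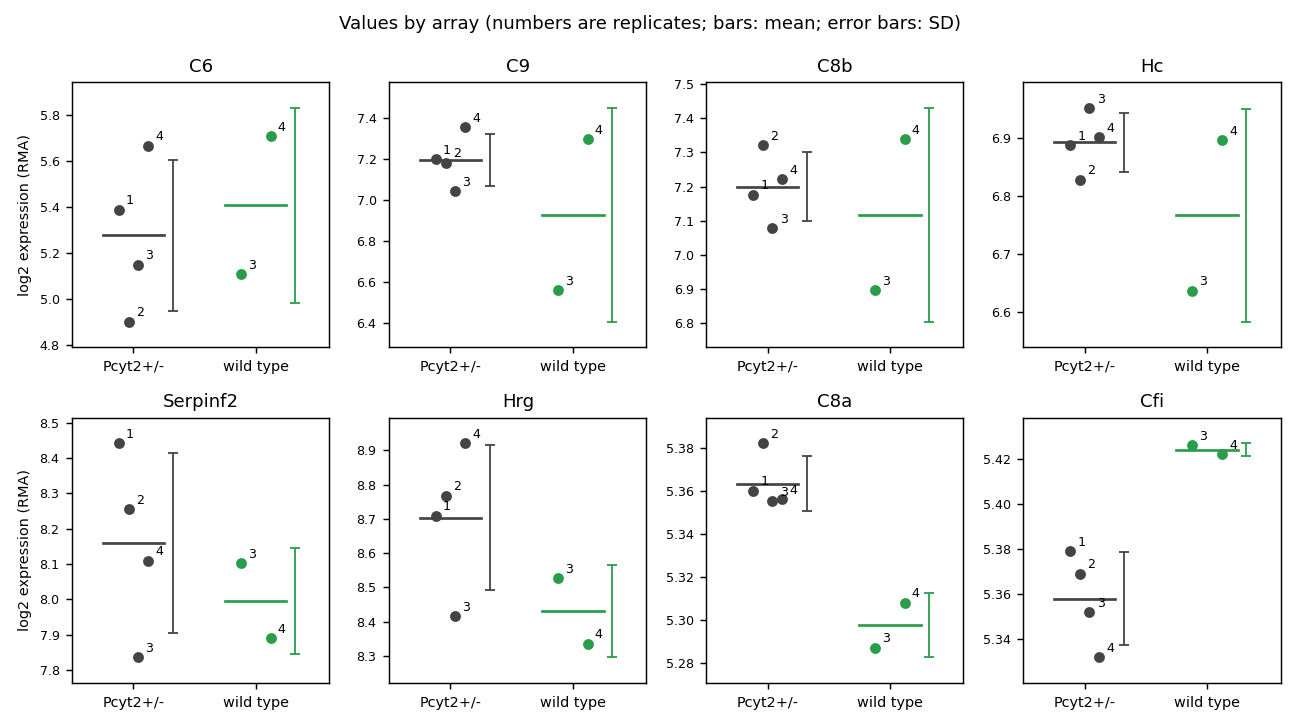
Log2 expression of 8 genes by array, with replicate numbers, group means (bars) and SD (error bars), on axes that differ between genes. C8a and Cfi separate the genotypes within a narrow scale, while C6, C9, C8b and Hc have their low wild type value in replicate 3.

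The windows of C8a, Hrg and C9 are given for the member with the smallest p and those with the largest differences on the deposited scale. They lie at chr4:104876349-104876648 (minus strand), chr16:22950822-22951121 (plus strand) and chr15:6445096-6445395 (plus strand) in GRCm38.p6, from RefSeq, with capitals as above.
C8a: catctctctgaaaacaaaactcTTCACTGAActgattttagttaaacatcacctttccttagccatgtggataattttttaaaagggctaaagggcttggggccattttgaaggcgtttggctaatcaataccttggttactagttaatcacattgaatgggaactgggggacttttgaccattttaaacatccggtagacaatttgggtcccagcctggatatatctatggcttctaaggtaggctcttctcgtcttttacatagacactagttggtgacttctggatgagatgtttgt
Hrg: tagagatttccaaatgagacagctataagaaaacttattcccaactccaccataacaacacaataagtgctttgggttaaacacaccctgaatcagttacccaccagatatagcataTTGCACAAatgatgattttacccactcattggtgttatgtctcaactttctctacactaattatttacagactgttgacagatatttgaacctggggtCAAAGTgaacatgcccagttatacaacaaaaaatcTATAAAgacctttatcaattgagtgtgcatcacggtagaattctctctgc
C9: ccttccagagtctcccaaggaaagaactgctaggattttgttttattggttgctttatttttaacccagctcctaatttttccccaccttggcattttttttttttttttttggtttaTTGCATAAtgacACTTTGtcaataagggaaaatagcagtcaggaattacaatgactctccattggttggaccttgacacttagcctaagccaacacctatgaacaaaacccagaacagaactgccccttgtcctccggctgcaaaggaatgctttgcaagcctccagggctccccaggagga

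The C8a window held a match to the STAT letters. Those of Hrg and C9 each held a match to the C/EBP letters and to the HNF4 letters, and that of Hrg a TATA match.

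Set side by side, complement and clotting did not move apart by more than arrays of 1 genotype did. Of the 22 clotting and fibrinolysis genes, 6 had a lower mean, and the median difference was 0.019. Of the 18 complement genes, 11 had a lower mean, and the median was -0.015. All genes gave 51.9% with a lower mean, and genes with a mean above 5 gave 62.4%. The gap between the medians was -0.034, while the same gap varied between arrays of a genotype with an SD of 0.040. It was -0.032 without the C1q chains and 0.0027 without wild type replicate 4. By unadjusted p under 0.05, clotting had 1 lower (F13b) and 2 higher (Fga and Vtn), and complement 3 lower (C1ra, Mbl2 and Cfi) and 1 higher (C8a). At that p all genes gave 3.44% lower and 1.86% higher, and genes with a mean above 5 gave 20.2% in either direction.

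**Figure D3:**
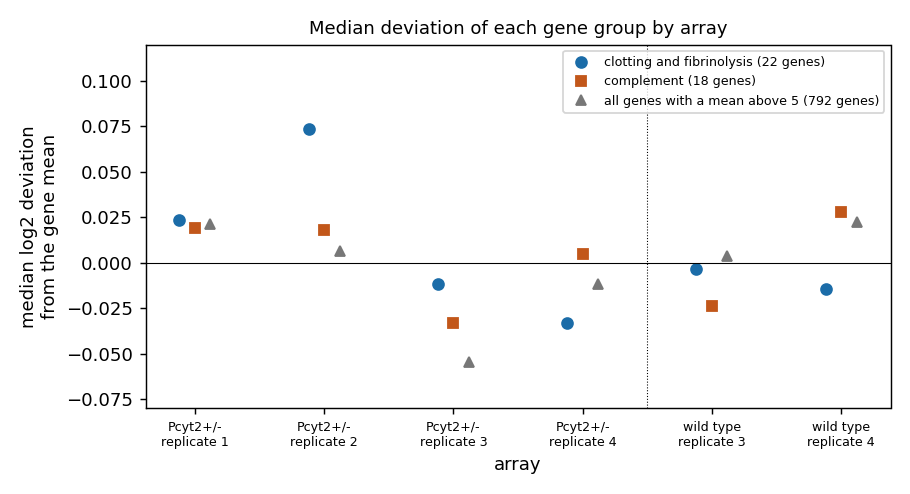
The median log2 deviation from the gene mean for clotting and fibrinolysis genes, complement genes and all genes with a mean above 5, by array. The clotting genes are highest in Pcyt2+/- replicate 2 (0.074) and lowest in Pcyt2+/- replicate 4 (-0.033), with both wild type mice between them.

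Within the Pcyt2+/- group the clotting genes differed more from mouse to mouse than between genotypes. Their median deviation from the gene mean was 0.023, 0.074, -0.012 and -0.033 in Pcyt2+/- replicates 1 to 4 and -0.0036 and -0.014 in wild type replicates 3 and 4. Pcyt2+/- replicate 2 had the highest value over all 6 arrays for 13 of the 22 genes, and Pcyt2+/- replicate 4 the lowest for 10. Kng1, Kng2, Plg, Fgb and F10 had these mice at the ends of the Pcyt2+/- range. Bright genes as a whole did not follow: their median deviation was 0.0067 in Pcyt2+/- replicate 2 and -0.011 in replicate 4. For the complement genes the lowest median was -0.033 (Pcyt2+/- replicate 3) and the highest 0.028 (wild type replicate 4).

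**Figure D4:**
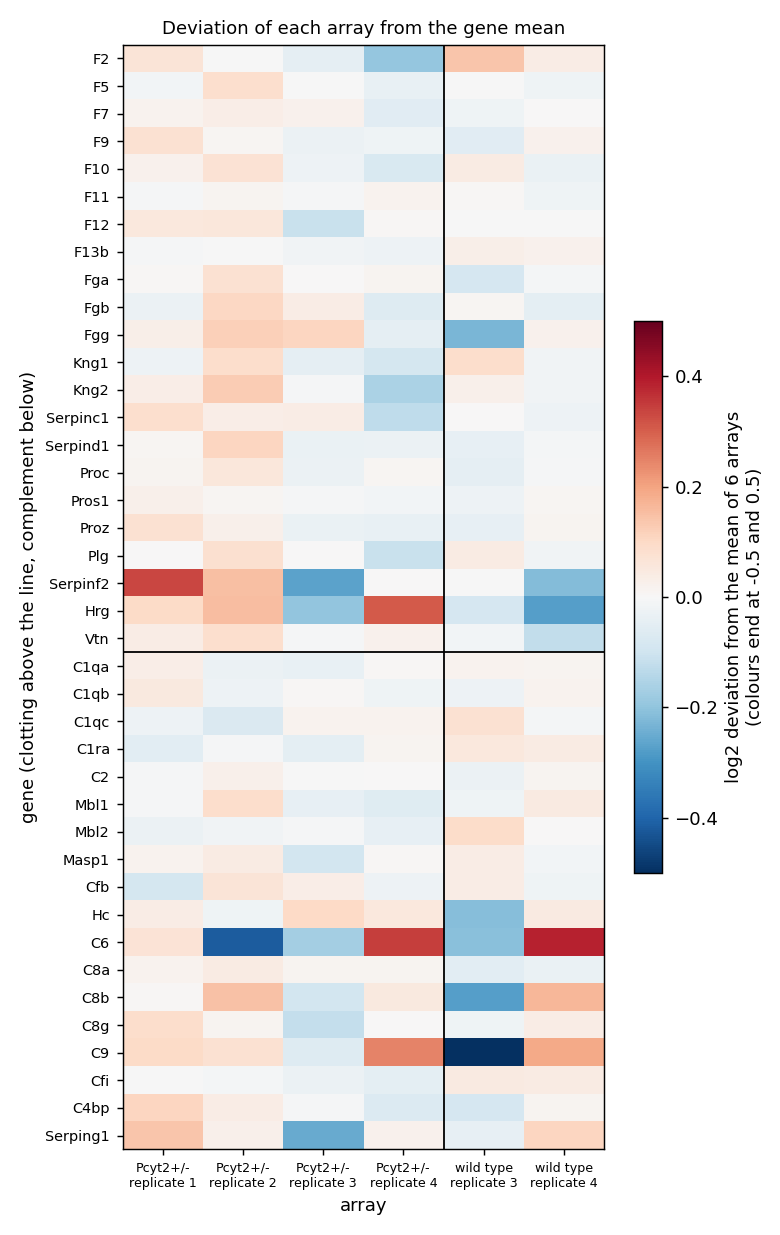
Each array's log2 deviation from the mean of 6 arrays, for the 40 genes, with clotting above and complement below the line and wild type to the right. C6 and C9 carry the strongest colours, and wild type replicate 3 is low for Fgg, Hc, C8b and C9.

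Other genes of clotting and complement were read from separate lists. Of 33 other clotting and fibrinolysis genes 30 were measured, with a median of 0.0057 over the list, and 0 passed over all genes. An unadjusted p under 0.05 was found for 3, each lower in Pcyt2+/-. All genes gave 5.30% (3.44% lower), and genes with a mean above 5 gave 20.2%. The first of the 3 was Vkorc1, the vitamin K epoxide reductase on which the vitamin K-dependent factors rely and the target of warfarin. It read 5.50, 5.55, 5.51 and 5.59 in Pcyt2+/- replicates 1 to 4 and 5.72 and 5.75 in wild type replicates 3 and 4. The groups lay well apart, with means of 5.54 ± 0.043 (SD, n = 4) and 5.73 ± 0.019 (SD, n = 2).

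The Vkorc1 difference of -0.20 (SE 0.027) had an unadjusted p of 0.000187 and an adjusted p of 0.235 by limma, smaller than that of any complement or clotting member. It stayed between -0.22 and -0.18 with any 1 array left out and was -0.14 after quantile normalization and -0.34 with the median signal subtracted. With limma's trended and robust prior the adjusted p of Vkorc1 was 0.71. Its paralog Vkorc1l1 differed by -0.050 (unadjusted p = 0.00321, and -0.18 with the median signal subtracted), and Mcfd2, which helps export factors V and VIII, by -0.036 (unadjusted p = 0.0359). Neither passed over all genes. Pzp, a plasma protease inhibitor of the alpha-2-macroglobulin family, had 0.13 (0.065 without wild type replicate 4), and F8, factor VIII, 0.043.

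Of 29 other complement genes 23 were measured, with 0 that passed over all genes and a median of 0.0029. An unadjusted p under 0.05 was found for 1, lower in Pcyt2+/-, where all genes gave 5.30% (3.44% lower). C1qbp, a mitochondrial protein that can bind C1q, had -0.031 (-0.020 without wild type replicate 3). Clu, the pore inhibitor clusterin, had 0.085 and C1s2, of the C1 proteases, 0.044 (0.25 with the median signal subtracted). Colec10, a collectin, had 0.020 and C1s1 0.021.

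Regulators of these genes were mostly dim. Of 18 measured, 0 passed over all genes, and an unadjusted p under 0.05 was found for 1 with a lower and 2 with a higher mean. All genes gave 3.44% lower and 1.86% higher. The median difference over the regulators was -0.0081. Onecut1, a liver transcription factor, had 0.18 (unadjusted p = 0.00479, and 0.71 with the median signal subtracted), and Ghr, the growth hormone receptor, 0.13 (unadjusted p = 0.00585, and 0.23 with the median signal subtracted). Cebpa, the C/EBP alpha gene, had -0.082 (unadjusted p = 0.0302; -0.25 with the median signal subtracted), and Nr1h4, the bile acid receptor FXR, -0.030 (-0.010 without wild type replicate 3). Hnf4a differed by -0.25 with an SE of 0.14, and by 0.038 without wild type replicate 4, while leaving out wild type replicate 3 gave -0.53.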

How the data were processed

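Liver RNA of 6 mice was hybridised to Affymetrix arrays. Per the submitters' processing notes the authors used RMA, and the deposited table holds its log2 values for each probe set. Not given in the sources used here were RMA's version, its settings and any build. The table held 28996 probe sets without missing values. Of these, 21218 had 1 gene symbol in the platform annotation, 1881 several and 5897 none. The highest probe set stood for a gene, which gave 18820 genes. Arrays have no sequencing depth, and their number limits the precision.

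The genotypes were compared by limma 3.58.1 under R 4.3.3 (functions lmFit and eBayes) as a two-sided test of genotype over 6 arrays. P-values were adjusted by Benjamini and Hochberg's method over the 18820 genes, and 0.05 was the threshold. The steps were tested on simulated data. Group medians and counts carry no test. Python 3.11.15, numpy 2.4.6, pandas 2.3.3 and matplotlib 3.10.9 were used for the rest. The members and gene lists were chosen with earlier results of these data known. The titles number the mice, and p-values measure only the spread between these mice.

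Full values are given for members with an unadjusted p under 0.05 and a fixed set of main factors, and from other lists for up to 4 genes with the smallest p and a fixed few. C6, C8b, Hrg, Serpinf2 and Kng1 were given in full after their values were seen. C3, on the fixed set, was not analysed here, and some results are not reported here. The setting with the median signal subtracted takes each array's median off on the linear scale, with a floor of 1, for genes with a mean above 4.6. Other settings were a filter on dim genes, rows per gene, array weights, median centring, quantile normalization, no moderation, a robust prior with a trend, the replicate number as a block, and fits without single arrays. Sequences are RefSeq windows of build GRCm38.p6.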

Additional observations from a re-analysis of the deposited data

Results flagged for a closer look

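Of the 40 genes, 1 had an array that stood apart from the other 3 of the Pcyt2+/- group by Dixon's test. F7 read 4.491 in Pcyt2+/- replicate 4, against 4.566 to 4.580 in the other Pcyt2+/- mice. Chance flags about 1 in 20 groups, and the values lie in the low band of the array.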

How the results depend on the processing

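None of the 40 genes passed limma over all genes under any of the 16 other settings. Over all genes, where the count was 0 (998 at an unadjusted p under 0.05), it was 3 with genes above 5 only, 3 with the median signal subtracted, 9 with the trended and robust prior, and 0 to 9 when 1 array was left out (9 without wild type replicate 3). A fit with 1 wild type array assumes that it varies like the others. The count of members with a lower mean, 17, was 11 of the 28 above 5, 11 after quantile normalization, and 13 to 20 when 1 array was left out. With the replicate block it was 27, and 2 genes of the array passed. Only replicates 3 and 4 occur in both genotypes, so the block fit compared just these mice. The values of Pcyt2+/- replicates 1 and 2, which had the highest clotting medians (0.023 and 0.074), do not enter its differences. The block also took the clotting median from 0.019 to -0.0073 and the complement minus clotting gap from -0.034 to -0.0015. The labels used here give mice of both genotypes the same numbers and do not say whether they were paired. Deviations of same-numbered mice correlated at 0.147 (replicate 3) and 0.0725 (replicate 4). These values cannot decide it, since the deviations of 2 wild type arrays from their mean mirror each other. The median over complement members, -0.015, ran from -0.023 to 0.021 when 1 array was left out and was 0.0099 after quantile normalization. Of the values of single members under other settings, 26 moved by more than the SD between arrays and 595 did not, and 22 of the 40 members changed sign in some fit without 1 array. The cause was not tested.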

Other observations

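C6 varied between mice of each genotype, and genes that are higher in male than in female mouse liver were read beside it, a list added after the data were seen. Of 9 such genes 8 were measured. Cyp4a12a, a male-biased fatty acid hydroxylase, read 8.45, 7.41, 8.40 and 8.54 in Pcyt2+/- replicates 1 to 4 and 8.09 and 8.57 in wild type replicates 3 and 4. These stand in the same order as the C6 values on all 6 arrays, from Pcyt2+/- replicate 2 at the low end to wild type replicate 4 at the high end. Cyp4a12b, a close copy of Cyp4a12a, and Cyp7b1, an oxysterol hydroxylase, each matched the C6 rank on 4 arrays, as did Slco1a1. Mup20, Hsd3b5 and Cyp2d9 matched it on 0 and Elovl3 on 2. These counts take only equal ranks and do not measure how closely a gene followed C6. Over Pcyt2+/- replicates 1 to 4 and wild type replicates 3 and 4, C6 ranked 4, 1, 3, 5, 2 and 6. Mup20, at 3, 2, 4, 6, 1 and 5, and Elovl3, at 5, 1, 2, 4, 3 and 6, stayed close to these ranks. Slco1a1, at 4, 5, 3, 1, 2 and 6, had Pcyt2+/- replicates 2 and 4 reversed. Hsd3b5, at 6, 5, 3, 3, 1 and 2, and Cyp2d9, at 2, 6, 4, 1, 3 and 5, did not stay close to the C6 ranks. The summed signal of the list on the linear scale was 3278 to 4462 in Pcyt2+/- and 3108 to 4367 in wild type. Most of this sum was Mup20, with a log2 mean of 11.56 in Pcyt2+/- and 11.41 in wild type. By the same count of equal ranks, C9, C8b and Hc each matched C6 on 1 array. Even so C9, at 4, 3, 2, 6, 1 and 5, also stayed close to the C6 ranks. C8b, at 3, 5, 2, 4, 1 and 6, and Hc, at 3, 2, 6, 5, 1 and 4, lay further off. Of 7 measured female-biased genes, 0 had a mean above 5. The part of these genes in the spread of C6 was not tested.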
